A study of Mus musculus with 9 samples.

Results

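The vehicle-treated baseline comprised 5 of the 9 samples of the series, named vehicle A to vehicle E after the letters in their titles and chosen by their treatment label alone. Each was RNA from hippocampal synaptoneurosomes of Fmr1 knockout mice of the C57Bl/6J strain that had received vehicle. The knockout is shared by both groups of the series, whose other group received the CB1 receptor antagonist AM6545, so no sample with an intact Fmr1 gene stands beside these levels. Age, sex, the vehicle itself and the number of animals behind a sample are not given in the labels, and nothing there says whether a sample was 1 animal or a pool. The spread between samples reported here is therefore the spread between these 5 preparations. No groups were compared.

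Synaptoneurosomes are pinched-off and resealed presynaptic terminals, often with the postsynaptic membrane still attached, that are recovered from homogenised brain by filtration or centrifugation. Their RNA includes messages stored and translated near synapses, and FMRP, the protein encoded by Fmr1, is an RNA-binding protein that represses translation of many such messages. The fraction is an enrichment and not a pure compartment: myelin fragments, glial processes and free mitochondria are known to travel with it.

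Levels are given as CPM, a gene's estimated counts per 1000000 estimated counts of all genes in the same sample, and as mean ± SD over the 5 samples. CPM favours long transcripts, so genes are ranked against each other as per-kilobase values, CPM divided by the median length of the gene's protein-coding transcripts and rescaled so that every sample has the same total as in CPM. Spread is given as the coefficient of variation (CV), the SD as a percent of the mean. A CV from 5 samples is imprecise: its 95% interval, for normally distributed values, runs from 0.599 to 2.87 times the estimate.

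The samples held 17629017 to 27263574 counts, and 16463 to 16816 of the 22255 listed genes had at least 1 count. Per sample, 9342 to 9588 genes reached 10 CPM, 1958 to 2114 reached 100 CPM and 93 to 97 reached 1000 CPM. Across genes with a mean of 1 CPM or more, log2(CPM + 1) correlated between samples with r from 0.974 for vehicle A and C to 0.991 for vehicle D and E, a description over genes that are not independent replicates. Vehicle C and vehicle A stood at the ends of the first principal component, which held 53.6% of the variance among samples, with D next to A, then E, B and C. The choroid plexus genes Ttr, Folr1 and Kcnj13 had the largest weights on this component, on the side of A. Genes with a mean of 10 CPM or more that lay at least 2-fold apart in CPM + 1 numbered 132 between A and C and 5 between A and D. Both samples are therefore named wherever a value rests on them.

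Transcripts of the disrupted Fmr1 locus were still counted in every sample, at 13.1 CPM in vehicle A, 11.004 in B, 10.4 in C, 11.4 in D and 12.7 in E. The mean was 11.7 ± 1.14 CPM (SD, n = 5), and the values rested on 202 to 310 counts per sample. All 5 samples were thus close to each other, with a CV of 9.66%. Counts of the gene as a whole do not show whether an intact message is made. All 4 listed Y-linked genes were counted in each sample, with a summed level of 163 ± 12.1 CPM.

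RNA in the fraction was spread over many genes. On average 699.6 ± 61.7 genes (SD, n = 5) held 50% of the counts, from 628 in vehicle D to 761 in vehicle C. The 10 most abundant genes of a sample held 7.73% ± 1.64 of its counts, the top 100 held 24.8% ± 2.10 and the top 1000 held 56.2% ± 1.26 (SD, n = 5). The same genes led in all samples: 48 of the 50 with the highest mean were among the top 100 of every sample. The order depended on length: 36 of the 50 highest by CPM were also among the 50 highest per kilobase.

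Of the 25 genes with the most counts, 8 were encoded by the mitochondrial genome. The highest was mt-Co1, a catalytic subunit of cytochrome c oxidase, at 15728 CPM in vehicle A, 10991 in B, 9293 in C, 13301 in D and 7645 in E (11392 ± 3203 CPM, SD, n = 5). Next were mt-Atp6, a subunit of ATP synthase, at 10401 ± 2400 CPM, and mt-Co3, another oxidase subunit, at 9482 ± 2744 CPM. Vehicle A was the highest and vehicle E the lowest sample for all of these.

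The nuclear gene with the highest CPM was Cpe, encoding carboxypeptidase E, which processes neuropeptide precursors in dense-core vesicles. It was at 10273 CPM in vehicle A, 9768 in B, 7294 in C, 10043 in D and 8136 in E, a mean of 9103 ± 1314 CPM (SD, n = 5). Only C and E were under the mean, and the CV was 14.4%. Mbp, encoding the myelin basic protein, whose mRNA is carried to the tips of oligodendrocyte processes, followed at 12247, 8676, 5854, 9598 and 8457 CPM in vehicle A to E. Its highest and lowest values, in A and C, were 2.09-fold apart.

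Several of the leading nuclear genes encode membrane and signalling proteins of neurons. Calm2, a gene for the calcium sensor calmodulin, was at 4304 ± 629 CPM, while Calm3, which encodes the same protein, was at 459 ± 66.1 CPM (SD, n = 5). Both were highest in vehicle C. Snap25, encoding a SNARE protein of synaptic vesicle fusion, was at 3293 CPM in vehicle A, 3705 in B, 5403 in C, 3334 in D and 4233 in E, so C stood above the rest and A and D were alike at the bottom. Atp1b1, the beta subunit of the sodium-potassium pump, was at 3493 ± 174 CPM.

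Gpm6a, a neuronal membrane glycoprotein of growing processes, and Atp1b1 were the steadiest of the leading 25. Gpm6a was at 3616 CPM in vehicle A, 3737 in B, 3553 in C, 3847 in D and 3303 in E, a CV of 5.72%, and Atp1b1 had a CV of 4.98%. At the other end was Enpp2, encoding the secreted enzyme autotaxin, at 5320.3 CPM in vehicle A, 777 in B, 267 in C, 6223 in D and 3405 in E. Enpp2 ranked among the top 25 by mean, yet in C it was far below the other 24, and its CV was 82.9%. Among the rest of the 25 were Fth1, a ferritin chain, the myelin gene Mobp, the ubiquitin gene Ubb, the chaperone Hspa8, Gpm6b, the glycolytic enzyme Aldoa, the adaptor Ywhaz and the mitochondrial genes.

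**Figure D1:**
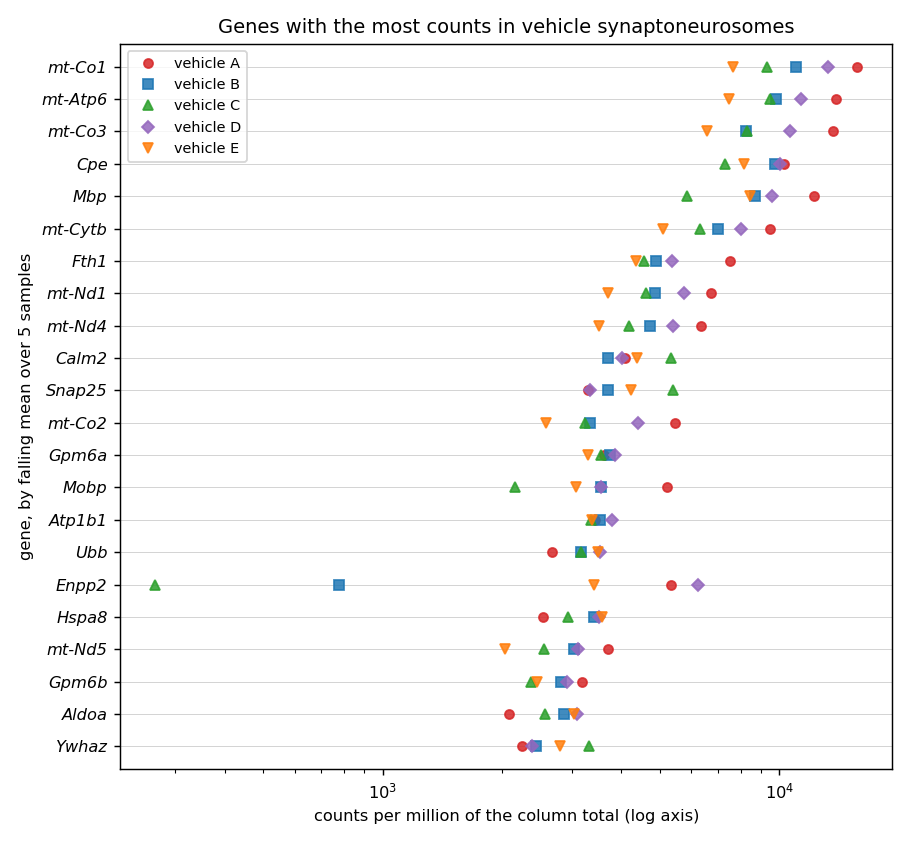
CPM of 22 of the 25 genes with the highest mean, on a log axis; each point is 1 vehicle sample. In 16 of the 22 genes the samples span 2-fold or less, mitochondrially encoded genes are highest in vehicle A and lowest in vehicle E, and Enpp2 runs from 267 to 6223 CPM.

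Per kilobase, the 10 leading genes were the same kinds in another order. On that scale mt-Atp6 led with 22369 ± 4627 (SD, n = 5), then mt-Co3 with 17691, Fth1 with 13221, mt-Co1 with 10790 and Mobp, the myelin-associated oligodendrocyte basic protein, with 10327. mt-Cytb, mt-Co2, mt-Nd1, Mbp and Cpe completed the 10, with per-kilobase values from 9178 down to 6313. Snap25, at a per-kilobase value of 3761, stayed below Mbp, at 6792, and below Calm2, at 6187.

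Mitochondrially encoded mRNAs made up 7.90% of the counts in vehicle A, 5.48% in B, 5.07% in C, 6.54% in D and 4.06% in E. Their mean share was 5.81% ± 1.47 (SD, n = 5). The mitochondrial genome encodes core subunits of the respiratory chain and of ATP synthase, all read from a few long primary transcripts. All 13 of its protein-coding genes were counted, and all 13 were highest in A and lowest in E, where 18.1% and 4.69% of all genes at 10 CPM or more were so. The median CV of the 13 was 23.5%, from 21.7% for mt-Nd5 to 36.6% for mt-Nd3, against 12.2% over all genes at 10 CPM or more. Mitochondrial ribosomal RNAs were not analysed here.

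The mitochondrial genes therefore moved as one block, but their levels were far from equal. After the 3 leading genes came mt-Cytb, cytochrome b of complex III, at 7168 ± 1659 CPM, then the complex I subunits mt-Nd1 and mt-Nd4 at 5136 ± 1150 and 4828 ± 1090 CPM (SD, n = 5). The lowest were mt-Nd3 at 150 ± 54.8, mt-Nd4l at 76.9 ± 17.8 and mt-Atp8 at 69.3 ± 18.7 CPM. These last 3 are short genes, of 348, 297 and 204 bases, and they stayed last per kilobase, at per-kilobase values of 629, 380 and 497. mt-Atp8 and mt-Nd4l overlap their neighbours mt-Atp6 and mt-Nd4 on the mitochondrial genome, so how reads were divided between them is uncertain.

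**Figure D2:**
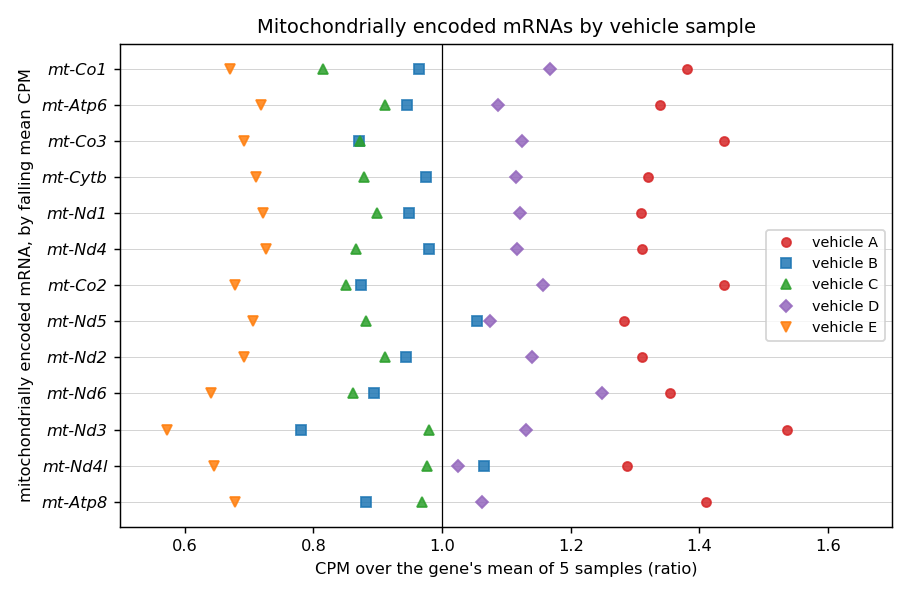
CPM of the 13 mitochondrially encoded mRNAs divided by each gene's mean over 5 vehicle samples; each point is 1 sample and the vertical line is the mean. In every row vehicle A lies farthest to the right and vehicle E farthest to the left.

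Nuclear genes of the respiratory chain did not share that order of samples. The 78 listed genes summed to 18189 CPM in vehicle A, 16303 in B, 18230.1 in C, 19578 in D and 17253 in E, a CV of 6.82%. D was highest and B lowest, and A lay near the middle. As a result the ratio of mitochondrially encoded to nuclear respiratory chain counts ran from 4.34 in A to 2.35 in E, with 3.36 in B, 2.78 in C and 3.34 in D.

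Within that steady sum, genes differed in their order of samples. Of the 76 members at 10 CPM or more, 53 (69.7%) were highest in vehicle A and 12 (15.8%) were lowest there, where 18.1% and 29.0% of all genes at that level were so. Atp5b, the catalytic beta subunit of ATP synthase, was at 1886 CPM in A, 2641 in B, 2337 in C, 3158 in D and 2905 in E, and Atp5a1, the alpha subunit, was likewise lowest in A. Transcripts of the 53 genes highest in A had a median of 606 bases, those of the 12 lowest in A a median of 1264 bases, and those of all genes at 10 CPM or more a median of 2184.5 bases.

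Cytosolic ribosomal protein genes showed the same order of samples as the short respiratory chain genes. The list summed to 7257 CPM in vehicle A, 5016 in B, 6215 in C, 6207 in D and 5299 in E. Of its 82 members at 10 CPM or more, 74 were highest in A and 67 lowest in B, where 18.1% and 18.0% of all genes at that level were so. Rpl13 of the large subunit was at 359 CPM in A and at 227 to 283 CPM in the others. Rpl4, the member with the most counts, was at 351 ± 15.8 CPM and was highest in D, and Rpl3 was at 309 ± 25.7 CPM. The 74 genes highest in A had a median length of 677.5 bases and the 8 others one of 1111.5 bases. With mitochondrially encoded genes left out, genes with transcripts under 1000 bases held 21.4% of the remaining counts in A and 19.3% to 20.3% in the others; the part of this difference in the ribosomal protein levels was not tested.

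Messages of neurons and of glia were both abundant. The 24 listed pan-neuronal genes summed to 15300.4 CPM in vehicle A, 18479 in B, 19442 in C, 17391 in D and 18271 in E, a mean of 17777 ± 1564 CPM (SD, n = 5). The glial sum, over lists for astrocytes, oligodendrocytes, their precursors and microglia, was 40799.9 CPM in A, 33185 in B, 22408 in C, 34476 in D and 29547 in E, a mean of 32083 ± 6763 CPM. The ratio of the neuronal to the glial sum was thus 0.375 in A, 0.557 in B, 0.868 in C, 0.504 in D and 0.618 in E, a mean of 0.584 ± 0.182. Without vehicle C the mean ratio was 0.514. A ratio of list sums depends on the genes listed and is no ratio of cells, and fewer cells of a type and less RNA per cell cannot be told apart in bulk samples. Whether the RNA of a list lay in synaptic particles or in other material of the fraction cannot be told apart either.

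Neuronal genes were mostly highest in vehicle C and lowest in vehicle A. Of the 24 genes, 14 were highest in C and 15 lowest in A, where 32.7% and 29.0% of all genes at 10 CPM or more were so. Among its leading genes, beside Snap25, was Rtn1, encoding reticulon 1 of the endoplasmic reticulum, at 2291 ± 214 CPM (SD, n = 5). Rtn1 ran from 2103 CPM in C to 2655 in D, so not every neuronal gene followed the order of the sum. Snap25 held 22.5% of the pan-neuronal sum, and without it the sum in C was below that in B.

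The sums for excitatory and inhibitory neurons were nearer to level across samples than the pan-neuronal sum, whose CV was 8.80%. Excitatory neuron genes summed to 3293 ± 189 CPM and inhibitory neuron genes to 1644 ± 42.1 CPM (SD, n = 5), CVs of 5.74% and 2.56%. Single members were less steady than these sums. Their median CV at 10 CPM or more was 11.9% for excitatory and 13.3% for inhibitory genes, against 12.2% over all genes at that level. The ratio of the excitatory to the inhibitory sum was 1.94 in vehicle A, 2.10 in B, 2.04 in C, 1.90 in D and 2.04 in E. The leading excitatory genes were Slc17a7, the vesicular glutamate transporter VGLUT1, at 898 ± 93.1 CPM, Nrgn, the postsynaptic calmodulin-binding protein neurogranin, at 704 ± 98.5 CPM, and Neurod6, a transcription factor of forebrain excitatory neurons, at 378 ± 45.0 CPM. On the inhibitory side were Gad1, which makes GABA, at 358 ± 43.1 CPM, and the neuropeptide Sst, at 217 ± 34.0 CPM. Vehicle B was the highest sample for Slc17a7, at 1062 CPM.

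Genes used to tell hippocampal fields apart were present for each field. Dentate granule cell genes summed to 787 ± 50.6 CPM, led by Calb1, the calcium buffer calbindin, at 301 ± 48.8 CPM (SD, n = 5). CA1 genes summed to 871 ± 72.1 CPM, led by the secreted protein gene Ccn3 at 254 ± 34.0 CPM, CA2 genes to 539 ± 15.6 CPM and CA3 genes to 995 ± 118 CPM. In CA3 a single gene, Nnat, held 61.0% of the list's counts, and in CA2 Adcy1 held 43.5%. Lists of neighbouring regions had lower sums: 323 ± 48.2 CPM for isocortex, 220 ± 31.3 for striatum, 137 ± 8.52 for thalamus and 7.97 ± 0.852 for hypothalamus. In these lists, too, a single gene held much of the counts: 54.3%, 48.9%, 46.5% and 42.6%, in the same order. The lists differ in length and gene choice, so their sums do not rank the regions.

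By CPM, oligodendrocyte genes and pan-neuronal genes had the highest sums among the cell class lists, and their order differed between samples. Per kilobase, the mean astrocyte sum, at 14479, was above the pan-neuronal sum, at 13987. Oligodendrocyte genes summed to 25505 CPM in vehicle A, 18732 in B, 12858 in C, 20022 in D and 18052 in E, a mean of 19034 ± 4529 CPM (SD, n = 5). C was the lowest sample for 14 of the 17 members at 10 CPM or more and A the highest for 11, where 18.2% and 18.1% of all genes at that level were so. Mbp alone held 47.1% of the list; without it the mean sum was 10068 CPM. Mobp was at 5217 CPM in A, 3550.4 in B, 2159 in C, 3556 in D and 3081 in E. Precursor genes, at 300 ± 35.5 CPM in all, showed a narrower range, from 259.96 CPM in C to 341 in B.

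Astrocyte genes summed to 13241 CPM in vehicle A, 12446 in B, 8212 in C, 12599 in D and 9856 in E, a mean of 11271 ± 2144 CPM (SD, n = 5). C was lowest for 15 of the 20 members and B highest for 10 of them, against 18.2% and 19.4% of all genes at 10 CPM or more. Apoe, the lipid carrier secreted by astrocytes, was at 3143, 2529, 1565, 3227 and 2035 CPM in vehicle A to E. Aldoc, a glycolytic enzyme, was at 2029 ± 345 CPM and Clu, the secreted chaperone clusterin, at 1978 ± 469 CPM. Microglial genes were lower, at 1478 ± 270 CPM in all, and 18 of 20 were lowest in C, again against 18.2% of all genes. Among the leading ones were Ctss, a lysosomal protease, at 204 ± 47.1 CPM, and Csf1r, the receptor for the growth factor CSF-1, at 127 ± 28.2 CPM. Vehicle C was thus at the low end for all 3 glial classes at once. Its pan-neuronal sum was the highest of the samples, but without Snap25 that sum was lower in C than in B.

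**Figure D3:**
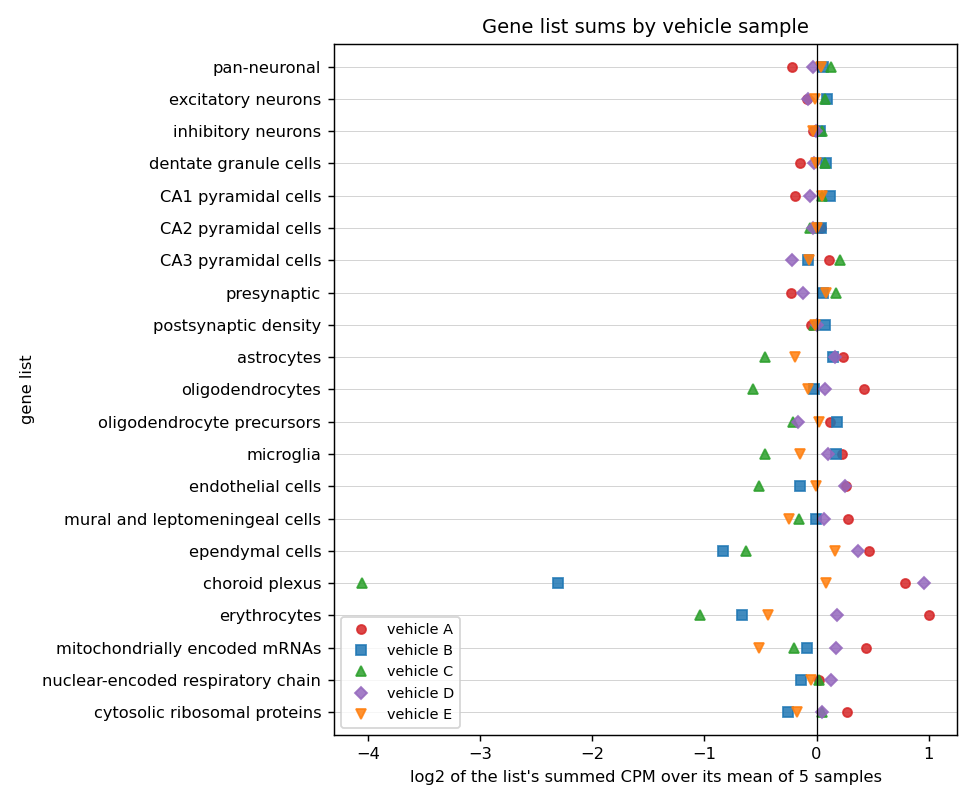
Summed CPM of each gene list as log2 of its ratio to the mean of the 5 vehicle samples; each point is 1 sample. The sums of inhibitory, CA2 and postsynaptic density genes lie close to 0. Vehicle C lies lowest for glial lists, and the choroid plexus list spreads over 32.3-fold.

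Synaptic genes were split by side. The 29 listed presynaptic genes summed to 15142 CPM in vehicle A, 18449 in B, 19979 in C, 16319 in D and 18772 in E, with a CV of 11.05%. The 34 postsynaptic density genes summed to 7054 CPM in A, 7717 in B, 7192 in C, 7310.4 in D and 7242 in E, with a CV of 3.42%. C was above the other samples for the presynaptic sum alone, and A was lowest for both. Snap25, a member of both the presynaptic and the pan-neuronal lists, held 22.5% of the presynaptic sum. Without it, the presynaptic sum in C was below that in B. Of the 29 presynaptic genes, 10 (34.5%) were highest in C and 7 (24.1%) lowest there. Of all genes at 10 CPM or more, 32.7% and 18.2% were so. The ratio of the sums ran from 2.15 in A to 2.78 in C.

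Among presynaptic genes, Syp, the vesicle protein synaptophysin, was at 1821 ± 199 CPM, and Nsf, the ATPase that takes SNARE complexes apart, was at 1679 ± 334 CPM (SD, n = 5). Nsf was at 1103 CPM in vehicle A, 1897 in B, 1692 in C, 1799 in D and 1904 in E, so that A was well below the others. Gria2, the AMPA receptor subunit that limits calcium entry, led the postsynaptic list at 1443 CPM in A, 1596 in B, 1406 in C, 1651 in D and 1443 in E, a CV of 7.19%. Camk2b, the beta subunit of the calcium and calmodulin-dependent kinase CaMKII, was at 755 ± 134 CPM. The median CV was 10.6% over the postsynaptic members and 12.2% over the presynaptic ones, and 12.2% over all genes at 10 CPM or more.

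The list of dendritic mRNAs summed to 17234 ± 2226 CPM (SD, n = 5). Of that sum 52.0% was Mbp, an oligodendrocyte gene whose mRNA is carried in oligodendrocyte processes, so the sum is no level of dendritic RNA. The kinesin gene Kif5a was at 904 ± 194 CPM. Immediate early genes, switched on by neuronal activity, summed to 894 ± 122 CPM, with Jun at 138 ± 21.8, Egr1 at 126 ± 20.3 and Bdnf, the neurotrophin, at 109 ± 4.65 CPM. Of 15 such genes at 10 CPM or more, 8 were highest in vehicle C and 6 in E, where 32.7% and 19.3% of all genes at that level were so. Tubulin genes, at 7051 ± 951 CPM in all, were lowest in A for 9 of 11, and heat shock genes, at 8768 ± 1071 CPM, for 8 of 13, against 29.0% of all genes at 10 CPM or more. Tuba1a and Hspa8 led these lists at 2158 ± 252 and 3191 ± 446 CPM. Tubulin genes are similar in sequence, so the division of reads among them is uncertain.

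Among the list sums, the widest difference between samples was that of the choroid plexus, the epithelium that secretes cerebrospinal fluid into the ventricles beside the hippocampus. The 15 listed genes summed to 9594 CPM in vehicle A, 1122 in B, 333 in C, 10777 in D and 5862 in E. D was 32.3-fold above C; without C the range was 9.60-fold. Without Ttr and Enpp2, which hold most of the counts, the sums were 645, 74.5, 34.4, 699 and 465 CPM, a 20.3-fold range. All 15 genes were higher in A, D and E than in B and C, and all 15 were lowest in C. Of all genes at 10 CPM or more, 7.36% had the first of these orders and 18.2% were lowest in C.

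Ttr, encoding transthyretin, the thyroid hormone carrier of cerebrospinal fluid, was at 3629 CPM in vehicle A, 271 in B, 31.5 in C, 3854 in D and 1992 in E. Kcnj13, an apical potassium channel, was at 135 CPM in A, 11.9 in B, 2.21 in C, 156 in D and 81.6 in E. Kl, encoding the ageing-related protein klotho, was at 97.0, 17.9, 12.7, 96.8 and 72.8 CPM in vehicle A to E. A and D were alike and E was somewhat lower for each, while B and C were several-fold below all of them. Clic6, an intracellular chloride channel, and Folr1, a folate receptor, had means of 45.2 ± 37.4 and 42.6 ± 38.0 CPM. Cldn2, a claudin of leaky tight junctions, was at 20.3 CPM in A, 2.02 in B, 1.19 in C, 18.9 in D and 14.96 in E.

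The 250 bases before the RefSeq start of 3 listed choroid plexus genes, chosen as examples and not by a rule, are shown, 5′ to 3′ on the gene's strand. Kcnj13 lies on the minus strand at chr1:87394730-87394979, Kl on the plus strand at chr5:150952357-150952606 and Cldn2 on the plus strand at chrX:139800558-139800807 (GRCm38.p6). Capitals mark the TATA box letters TATAAA, searched on both strands in the last 50 bases before the start.
Kcnj13: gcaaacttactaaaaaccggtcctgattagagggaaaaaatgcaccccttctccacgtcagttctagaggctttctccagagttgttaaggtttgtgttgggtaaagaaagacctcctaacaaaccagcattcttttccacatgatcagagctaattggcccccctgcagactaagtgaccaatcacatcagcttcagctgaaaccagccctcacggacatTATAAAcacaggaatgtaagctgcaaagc
Kl: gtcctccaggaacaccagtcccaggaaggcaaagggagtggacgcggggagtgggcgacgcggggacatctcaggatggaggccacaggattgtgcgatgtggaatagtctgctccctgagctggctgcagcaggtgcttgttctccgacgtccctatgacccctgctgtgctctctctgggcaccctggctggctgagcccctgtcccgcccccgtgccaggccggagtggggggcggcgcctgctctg
Cldn2: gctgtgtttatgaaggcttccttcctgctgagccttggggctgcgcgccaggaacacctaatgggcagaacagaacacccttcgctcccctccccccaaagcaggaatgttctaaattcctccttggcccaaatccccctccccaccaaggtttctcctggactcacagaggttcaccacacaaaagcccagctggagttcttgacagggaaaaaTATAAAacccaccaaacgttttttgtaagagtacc
The letters begin 29 bases before the start of Kcnj13 and 35 bases before that of Cldn2, whose RefSeq start was not found in a GENCODE M21 transcript, and were not found in this window of Kl. Of the 16 windows counted for listed choroid plexus genes, 2 (12.5%) held them, and 3.50% of all 32851 windows did. Windows on the chromosome that carries Ttr were left out of the 16 but kept among the 32851, so these shares are not like for like. By gene, 2 of the 10 with a counted window held the letters, and both are among the 3 shown. These matches describe the letters of the reference sequence only.

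Other genes of vessels, blood and ventricle lining moved in part with the choroid plexus. The 5 erythrocyte genes summed to 1216 CPM in vehicle A, 383 in B, 296 in C, 688 in D and 449 in E, a 4.12-fold range, or 2.33-fold without A. Hbb-bs, a beta globin, was at 211 ± 117 CPM and Hba-a1, an alpha globin, at 197 ± 133 CPM (SD, n = 5); Hba-a1 and Hba-a2 are near-identical copies, so their division is uncertain. Ependymal genes summed to 68.2 CPM in A, 27.7 in B, 32.0 in C, 63.6 in D and 55.2 in E. Endothelial genes, at 839 ± 176 CPM, were lowest in C, but Bsg, which neurons and choroid plexus also express, held 83.1% of that list. Mural and leptomeningeal genes were at 347 ± 50.4 CPM. The part of these lists in the other differences between samples was not tested.

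Some messages of the pituitary and pineal glands were far higher in vehicle A than in the other samples. Gh, encoding growth hormone, was at 50.8 CPM in A, 0.477 in B, 0.103 in C, 0.0815 in D and 0 in E, where 3 counts would be 0.123 CPM. Pomc, the precursor of corticotropin, was at 22.6 CPM in A and 0.776 to 1.1004 CPM in the others. Tph1, which starts serotonin synthesis in the pineal gland, was at 7.26 CPM in A and 0.163 to 0.362 CPM in the others. Chga, a granin that neurons also make, held 93.0% of the pituitary list and did not share this pattern, at 219 CPM in A and 252 in D.

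Over the 9505 genes with a mean of 10 CPM or more, the median CV was 12.2%. Counting error alone would give a median of 3.29%, and taking it off left 11.7%. By edgeR, the common biological coefficient of variation over genes with a mean of 1 CPM or more was 16.8%. A CV under 5% was seen in 363 genes, or 3.82%, and a CV over 50% in 51 genes, or 0.537%. The median CV was 13.2% for genes of 10 to 30 CPM, 11.6% from 100 to 300 CPM and 14.6% for the 92 genes at 1000 CPM or more, where counting error was 0.476%. The most abundant genes were thus not the steadiest. Just under the level of 10 CPM were Cbx8 and Spice1, at 9.995 and 9.998 CPM, and just over it Gm20683 and Rabep2, at 10.003 and 10.006 CPM.

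**Figure D4:**
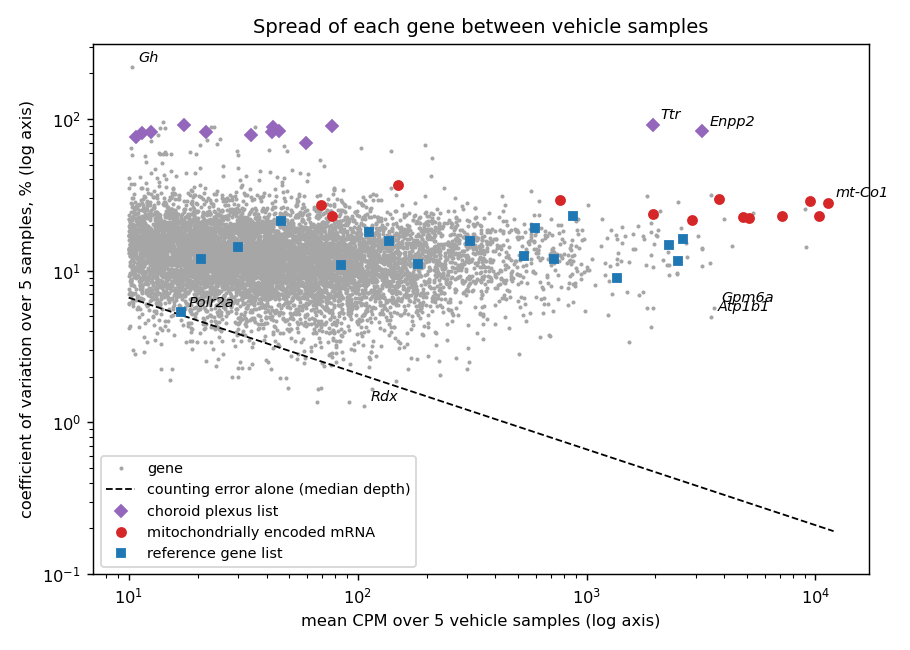
CV over 5 vehicle samples against mean CPM for 9505 genes with a mean of 10 CPM or more, both axes log; the dashed line is the CV that counting error alone gives at the median depth. The cloud lies near 12.2% and above the line, choroid plexus genes form a band from 69.9% to 92.0%, and the marked reference genes, which are not the whole list, lie between 5.32% and 22.9%.

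The steadiest gene was Rdx, encoding radixin, which links actin to the plasma membrane, at 105.5 CPM in vehicle A, 105.8 in B, 106.7 in C, 105.7 in D and 108.8 in E. Its CV was 1.28% (95% interval 0.769% to 3.69%), under the 2.04% that counting error gives on average. That interval is for a gene named in advance, while Rdx was picked for its low CV, so its true CV may well be higher. Next were Mesd, a chaperone of LDL receptors, at 91.9 ± 1.26 CPM, Mrpl4, a mitochondrial ribosomal protein, at 66.6 ± 0.916 CPM, Mpnd at 116 ± 1.91 CPM and Ppp4c, a phosphatase catalytic subunit, at 67.0 ± 1.11 CPM (SD, n = 5). Ttc5, Maco1, Ahi1, Cpsf7, Lrrc8b, Zdhhc16, Nelfe, Entpd5, Tmeff2 and Letm2 completed the 15 steadiest, with CVs up to 2.24%. At 100 CPM or more the 5 steadiest were Rdx, Mpnd, Ahi1, Tmeff2, at 228 ± 4.66 CPM, and Adk, the adenosine kinase, at 166 ± 3.71 CPM.

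The bottom of this ranking was not firm. A CV at or under the counting error was seen in 121 genes, and 33 to 57 of the 100 steadiest genes stayed among the 100 steadiest when a sample was left out. The 100 steadiest had a median level of 69.2 CPM, against 41.0 CPM over all genes at 10 CPM or more, and 1 of them was in a cell class or tissue list. Their ranking describes these samples and is not a list of stable genes for other work.

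Genes commonly used as references had a median CV of 14.4% over 19 genes, against 12.2% over all genes at 10 CPM or more, and 1 of the 19 had a CV under 5%. Among those named here, Polr2a, the large subunit of RNA polymerase II, had a CV of 5.32% and Ppia, cyclophilin A, one of 8.96%. Actb, beta-actin, was at 2243 CPM in A, 2353 in B, 2301 in C, 2922 in D and 2673 in E, and Gapdh at 1809, 2309, 2131, 2672 and 2518 CPM. Both were lowest in A and highest in D, with CVs of 11.6% and 14.7%. The most variable was Cyc1, at 22.9%, and Tfrc, Rplp0, Sdha, Gusb, Eif4a2, Tbp, B2m, Hprt, Ywhaz, Rpl13a, Pgk1 and Rps18 ran from 10.9% to 21.4%.

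Most of the 51 genes with a CV over 50% had the same order of samples. In 47 of them vehicle C was lowest, against 18.2% of the 9505 genes. In 48 vehicle A, D and E were all above B and C, an order that 700 of the 9505 genes, or 7.36%, showed. The 51 were picked by their spread, and genes low in B and C can pass the 10 CPM level through the other samples. The shares over all genes are therefore no yardstick for these counts. Of the 51, 13 were in the choroid plexus list, 4 in the erythrocyte list and 29 in no list. Gh had a CV of 220% and reached a mean of 10 CPM only through vehicle A. After Gh, the most variable were Prr32, Ttr, Steap1, Kcnj13, Folr1, Lbp, F5, 1500015O10Rik, Col8a1, Krt18, Enpp2, Clic6, Sema3b and Kcne2, with CVs of 95.6% down to 82.5%.

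The unlisted genes among these 15 were likewise higher in vehicle A, D and E than in B and C. Lbp, encoding a lipopolysaccharide-binding protein, was at 42.4 CPM in vehicle A, 4.59 in B, 0.931 in C, 46.9 in D and 23.1 in E. F5, coagulation factor V, was at 38.2, 3.52, 0.362, 46.0 and 26.4 CPM, and Krt18, an epithelial keratin, at 16.9, 2.49, 1.14, 30.5 and 21.004 CPM. All of them were highest in A or D and lowest in C; Krt18, unlike Lbp and F5, was higher in E than in A. Among the 100 most variable genes, 51 were highest in A and 41 in D, where 18.1% and 10.6% of all genes at 10 CPM or more were so. These 100 were likewise picked by their spread, so the shares over all genes are no yardstick for them. The last of the 100 had a CV of 34.9%.

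**Figure D5:**
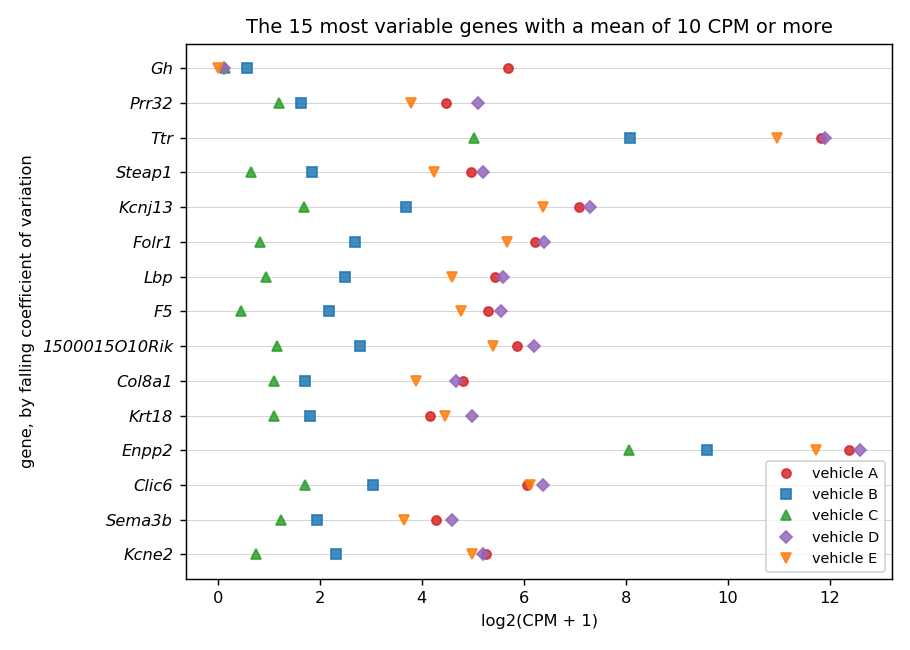
log2(CPM + 1) of the 15 genes with the highest CV among those with a mean of 10 CPM or more; each point is 1 vehicle sample. In 14 of 15 rows vehicle A, D and E lie to the right of B and C, and Gh is high in vehicle A alone.

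Some variable genes were also summed with a second identifier, and they were chosen after their values were seen. Sequences were not compared, and whether reads were divided between the identifiers was not tested. Nnt, the nicotinamide nucleotide transhydrogenase, has 2 identifiers, at 4.03, 5.32, 16.7, 0.954 and 4.08 CPM and at 18.8, 14.8, 0, 17.5 and 22.0 CPM in vehicle A to E. Summed, they gave 22.9, 20.1, 16.7, 18.4 and 26.1 CPM and a CV of 17.8%, against 97.8% and 58.7% apart. Gdf1 was at 15.8 CPM in A, 20.8 in B, 0 in C, 22.5 in D and 17.2 in E, with a CV of 58.6%. Cers1, whose transcript it shares, had a mean of 139 CPM and a CV of 13.6%. The sum of Gdf1 and Cers1 had a CV of 15.9%, above that of Cers1 alone. Cers1 held most of that sum, so the CV of the sum says little about Gdf1.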

How the data were processed

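RNA of the 5 vehicle samples was read from 1 table of estimated counts per gene, as deposited by the authors. Libraries were made from low RNA input, per the labels' protocols. Salmon 1.3 and DESeq2 1.30 and the builds GRCm39 and mm10 are named, per the submitters' processing notes, with no role given, so how reads were assigned and divided between similar genes is not given in the sources used here. Of the values per sample, 56.6% to 69.4% were whole numbers. Symbols and transcript lengths came from GENCODE M21 (GRCm38) for 22155 of 22255 identifiers, matched without version. The 100 others held 645 to 763 CPM per sample. Since 22144 identifiers carry another version than M21, no gene coordinates are given. Promoter windows are RefSeq sequences.

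CPM of the column total, mean, SD (n = 5) and CV were computed over all genes with Python 3.11.15, numpy 2.4.6, pandas 2.3.3 and scipy 1.17.1, and figures with matplotlib 3.10.9. Counting error was 1 over the square root of the mean count. edgeR 4.0.16 (R 4.3.3) gave TMM factors and dispersions on counts rounded to whole numbers, with no group term. The CV calculation was tested on simulated counts. A count of 0 allows up to 3 counts, which covers counting error only.

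The members, the 36 gene lists and the alternatives were chosen with earlier results of these data known. Genes named are the 25 highest, the 15 steadiest and 15 most variable at 10 CPM or more, the 5 steadiest at 100 CPM or more, the 10 highest per kilobase, the 3 highest of each list (up to 6 in lists that spread widely between samples), and the reference, calmodulin and mitochondrially encoded genes and Fmr1. Xist was not analysed, and some other genes are not reported here. No columns of other samples were used, and no groups were compared.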

Additional observations from a re-analysis of the deposited data

Results flagged for a closer look

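In each of 197 values, single genes and list sums, the sample farthest from the rest was set against Dixon's 95% critical value for 5 samples, 0.71. If the values were independent and had not been chosen by their spread, chance would mark about 9.85 of them (5%). In all, 11 were marked. Some genes were named for their high or low spread in these same samples, and list sums share members with single genes. The number expected by chance is therefore no yardstick for the 11.

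Of the 11, 6 were high in vehicle A, and all of these belong to the pituitary or pineal lists. The ratio of the gap to the range was 0.991 for Gh, 0.985 for Pomc, 0.972 for Tph1, 0.903 for the summed pineal list (23.7 CPM in A and 5.42 to 7.20 CPM in the others), 0.827 for Gngt2 and 0.793 for Sag. Sag, encoding the arrestin of photoreceptors and pinealocytes, was at 9.79 CPM in A and 2.996 to 4.40 CPM in the others. The pineal sum contains Tph1, Sag and Gngt2, so these marks are not independent. Gh reached a mean of 10 CPM only through vehicle A and had the highest CV of all genes at that level. Its mark therefore repeats the choice that named it.

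Slc17a7, at a ratio of 0.836, was high in vehicle B, with 1062 CPM against 839 to 876. Rpl4, at 0.848, was high in vehicle D, with 379 CPM against 342 to 347. Nsf, at 0.735, was low in vehicle A. Tfrc, the transferrin receptor, at 0.73, was low in vehicle C, with 69.0 CPM against 86.6 to 93.1. Ahi1, at 0.811, was low in vehicle E, with 142 CPM against 147 to 148, although its CV was among the lowest.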

How the results depend on the processing

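No paired analysis was possible because 1 group was described and no groups were compared. Of 136 alternative values of the leading results, 103 stayed within their limits (1 SD, or 1.5 times for counts), as did 2330 of 2460 others. With each sample left out in turn, 684.25 to 717.5 genes held 50% of counts, the 100 highest genes held 24.0% to 25.2%, the mitochondrial share was 5.29% to 6.25%, the neuronal to glial ratio was 0.514 (without C) to 0.637 (without A), the choroid plexus sum was 4228 to 6839 CPM and the median CV was 11.1% to 13.1%. Genes with a CV under 5% then numbered 461 (without E) to 776 (without A), and those over 50% numbered 34 (without C) to 57; among the 100 steadiest, 33 to 57 were shared, and among the 100 most variable 70 to 91.

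Per kilobase, 423.8 genes held 50%, the top 100 held 30.8%, the ratio was 0.388, and the neuronal and astrocyte sums were 13987 and 14479. Without mitochondrially encoded genes the top 100 held 20.9%, and their own share has no value. Without their most abundant gene, the neuronal, astrocyte, oligodendrocyte and microglial sums were 13783, 8771, 10068 and 1115 CPM. The median CV was 13.7% at 1 CPM or more and 16.7% with no filter. Genes with a CV under 5% numbered 203 at 50 CPM or more and 718 with counting error removed; genes over 50% numbered 263 at 1 CPM or more, 9 at 50 CPM or more and 3487 with no filter, where low counts prevail. Of the 100 steadiest, 32 were shared under TMM scaling, 65 without mitochondrially encoded genes, 64 at 50 CPM or more and 25 by edgeR's tagwise dispersion. Of the 100 most variable, 26 were shared at 1 CPM or more, 19 at 50 CPM or more and 0 with no filter. Apart from the changed filters and sample number, the cause was not tested.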
